A study of Mus musculus with 12 samples.

Results

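Mouse skin taken 3 days after a thermal injury was compared with skin taken at 0 hours, across every gene that the arrays measured above the background of dim probe sets. The comparison rests on 6 of the 12 arrays of the series, 3 labelled 3 days and 3 labelled 0 hours, each an Affymetrix oligonucleotide array hybridised with total RNA from 1 skin sample. The other 6 arrays, 3 at 2 hours and 3 at 14 days, lent their spread to the fit and show what came before and after. The labels give the organism, the tissue, the injury and the time, but no strain, genotype, sex or age. They leave unstated whether the 0 hours skin had been burnt and whether repeats of a time point were separate animals, so p-values measure the spread between these samples only, and that spread may be technical. Of 7275 probe sets, 6551 named exactly 1 gene, and these stood for 5599 genes, of which 3477 were bright enough to be tested. The members were chosen by their labels alone, with no measured value.

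A burn kills the surface of the skin, and the days that follow are those of inflammation. Neutrophils and then monocytes leave the blood along gradients of chemokines, engulf dead tissue in phagosomes and lysosomes, and release cytokines, oxidants and proteases. At the wound edge keratinocytes stop differentiating, change their keratins and begin to move, while fibroblasts and vessel cells prepare to divide and to lay new matrix. In whole tissue, fewer cells of a type and less RNA per cell cannot be told apart.

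Values are deposited signal in arbitrary units, and changes are log2 differences between group means with the standard error of a limma fit over all 12 arrays. Signals under 225.4 were treated as 225.4, the pooled lower quartile, and where a group had such an array the fold is only a lower bound, written "at least". Calls were made at 0.05 after Benjamini-Hochberg adjustment of the limma p-values. A call is named stable here when the 3 arrays of one group did not overlap the 3 of the other and the gene was also called with each of the 6 arrays left out in turn.

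The arrays of both groups differed in more than the time after injury. Array medians lay between 448.4 and 485.4 signal units in these groups, and 0 hours replicate 3 had the lowest mean Spearman correlation with its companions (0.851). RNA integrity can be read from the 3′ over 5′ signal ratio of the Gapdh controls, which gave log2 ratios of 1.71, 1.98 and 2.28 at 0 hours against 1.05, 0.47 and 0.05 at 3 days. The same ratio for the Actb controls was −0.177, 0.237 and −0.031 at 0 hours against 0.353, 0.175 and 0.159 at 3 days, so these groups overlapped and did not differ in the direction of the Gapdh ratio. The mean log2 signal of 47 skeletal muscle contractile genes was 12.72, 12.20 and 12.06 at 0 hours against 11.73, 11.46 and 10.82 at 3 days. Neither the Gapdh ratio nor the muscle mean overlapped between the groups, and on both the array of 3 days replicate 3 lay furthest from 0 hours. Markers of basal keratinocytes, which define skin, were present on the arrays labelled skin: of 13 with a probe set, 1 (Cd44) stayed at the floor throughout the 0 hours group and 0 throughout the 3 days group.

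**Figure D1:**
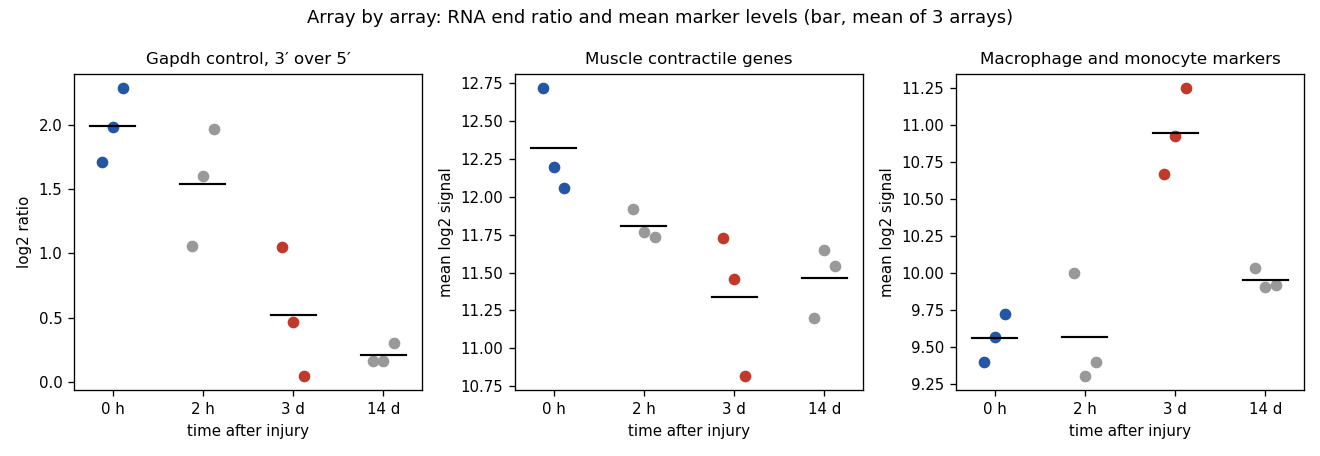
Each point is 1 array, by time after injury, and each bar is the mean of 3 arrays. The panels show the log2 ratio of the 3′ to the 5′ Gapdh control signal, the mean log2 signal of 47 muscle contractile genes and the mean log2 signal of 27 macrophage and monocyte markers, which lay between 9.40 and 9.72 at 0 hours (blue) and between 10.66 and 11.25 at 3 days (red).

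Of the 3477 genes, 462 were called at 3 days against 0 hours, or 13.3% of those tested. There were 309 higher calls (8.89%) and 153 lower calls (4.4%), and at an unadjusted p under 0.05 there were 1037 genes (29.8%). The arrays of the 2 groups did not overlap for 994 genes (28.6%). The median change over all genes was 0.02 on the log2 scale. Leaving out 3 days replicate 3 reduced the calls to 178 and leaving out 3 days replicate 2 to 297. Stable calls numbered 167 (4.8%), with 138 rises (3.97%) and 29 falls (0.834%). With the Gapdh ratio of each array as a covariate 4 genes were called, and with the muscle mean as a covariate 4. Plac8 and Klk6 were called higher in both fits, Gjb2 in the first, and Slfn4 and Cd53 in the second. Tnfaip2 was called lower in the first (−2.46 ± 0.43, limma adjusted p = 0.048) and was not called without a covariate. It was named after its values were seen. The direction of the 462 calls was kept for 446 of them in the first fit and 436 in the second. The Gapdh ratio and the muscle mean separated the arrays of all the comparisons of 3 days with 0 hours given here, and their part in the changes was not otherwise tested.

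**Figure D2:**
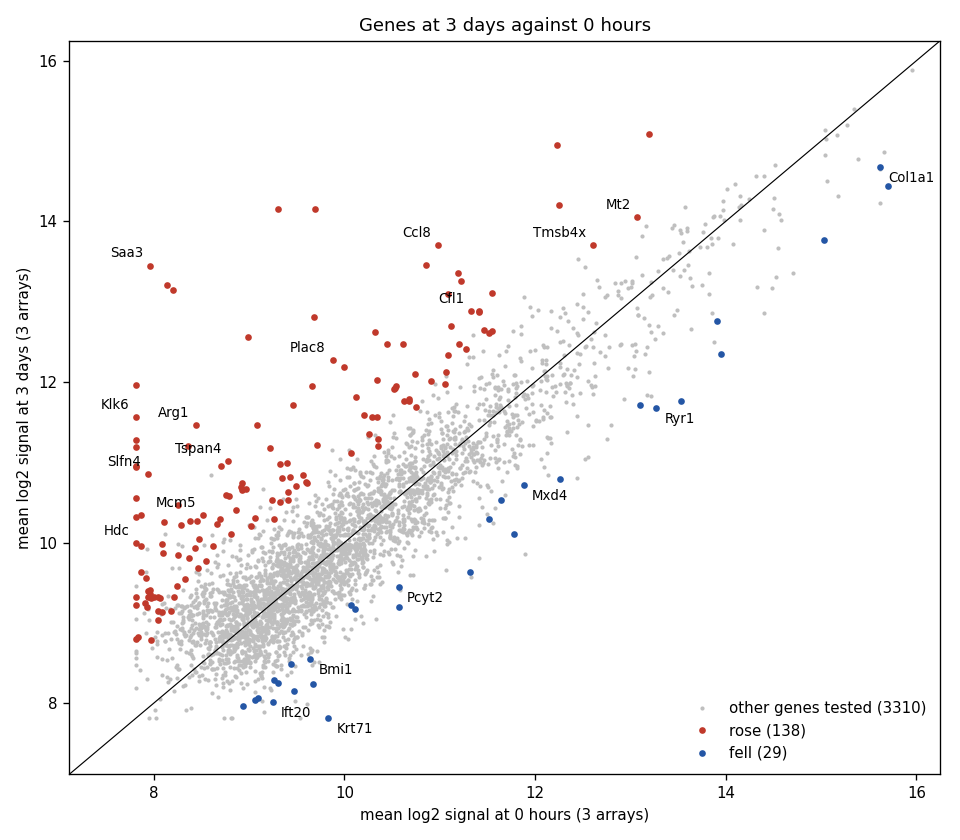
Each point is 1 of 3477 genes, with its mean log2 signal over 3 arrays at 0 hours on the x axis and at 3 days on the y axis. The diagonal marks equal signal, red points are the 138 rises and blue points the 29 falls that did not overlap between groups and were called with each of the 6 arrays left out. The column of red points at the left edge is made of genes at the floor at 0 hours.

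Plac8, a small cysteine-rich protein of myeloid and lymphoid cells, had, with Slfn4, the smallest adjusted p among rises outside the marker lists. Its signal was 970, 1014 and 846 at 0 hours and 5629, 4629.8 and 4675 at 3 days, so the groups lay far apart and each was tight. It rose 5.27-fold (log2 change 2.40 ± 0.20, limma adjusted p = 4.81e-06), by 2.63 with the Gapdh covariate and by 2.41 with the muscle covariate. Klk6, a secreted kallikrein protease of epidermis and other tissues, was below the floor at 0 hours, with 54.7, 28.1 and 127.8 as deposited, and reached 3638, 2165 and 3508 at 3 days. It rose at least 13.4-fold (3.75 ± 0.29), with 3.86 and 3.31 in the covariate fits. The size of both changes was similar with and without either array measure in the fit. Plac8 and Klk6 are the only genes called in both covariate fits, so similar sizes follow in part from that choice.

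Schlafen genes are induced in leukocytes by interferons and cell activation, and the 3 that were tested, counted by symbol after their values were seen, all rose. Slfn4 and Slfn2 were dim at 0 hours and could enter the test only through arrays of other time points, which favours a rise. Slfn4 had signals of 152, 119.8 and 293 at 0 hours and 1391, 1612 and 2800.3 at 3 days. It rose at least 7.5-fold (2.91 ± 0.23, limma adjusted p = 4.81e-06). Slfn2, which restrains the exit of T cells and monocytes from quiescence, was below the floor at 0 hours and at 701, 1587 and 3032 at 3 days. Its rise was at least 6.66-fold (2.73 ± 0.44), with 1.24 on its other probe set. Slfn1 rose at least 2.84-fold. The family has similar members, so how much each member contributes is uncertain. Slfn4 was called with the muscle covariate (2.14) and not with the Gapdh covariate (2.40, adjusted p = 0.082).

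Other genes whose symbols stand in no fixed marker list, several of them of leukocytes, belonged to the stable rises. By symbol, 40 stable rises and 13 stable falls lay outside all 69 lists. Genes were matched by symbol only, and the macrophage and monocyte list holds Lilrb4a and Lilrb4b, names close to the Lilr4b given here. Lilr4b, a receptor of the leukocyte immunoglobulin-like family, rose 4.76-fold (2.25 ± 0.32), from 334, 469 and 465 to 1204, 1915 and 3402. The tetraspanin Tspan4, a membrane organiser best known from migrasomes, rose at least 4.72-fold (2.24 ± 0.32), from 574, 655 and 222 to 1652, 2482 and 2173. Neither gene's groups overlapped, which the rule for stable calls required. Apbb1ip, an adaptor that links Rap1 to integrin activation, rose by 1.94 ± 0.25, and the endocytic adaptor Dab2 rose by 1.78 ± 0.23, with 0.58 and 0.93 on its other probe sets. Lst1, a transmembrane protein of myeloid cells, rose by 1.73 ± 0.24, Cd52, a small glycoprotein of lymphocytes and monocytes, by 1.71 ± 0.28, and Cd48, a ligand of natural killer and T cell receptors, by at least 1.27 ± 0.24. Ninj1, a membrane protein that opens the plasma membrane of lysing cells, rose by at least 1.64 ± 0.24. Slfn1, Apbb1ip, Dab2, Lst1, Cd52, Cd48 and Ninj1 were named after their values were seen.

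**Figure D3:**
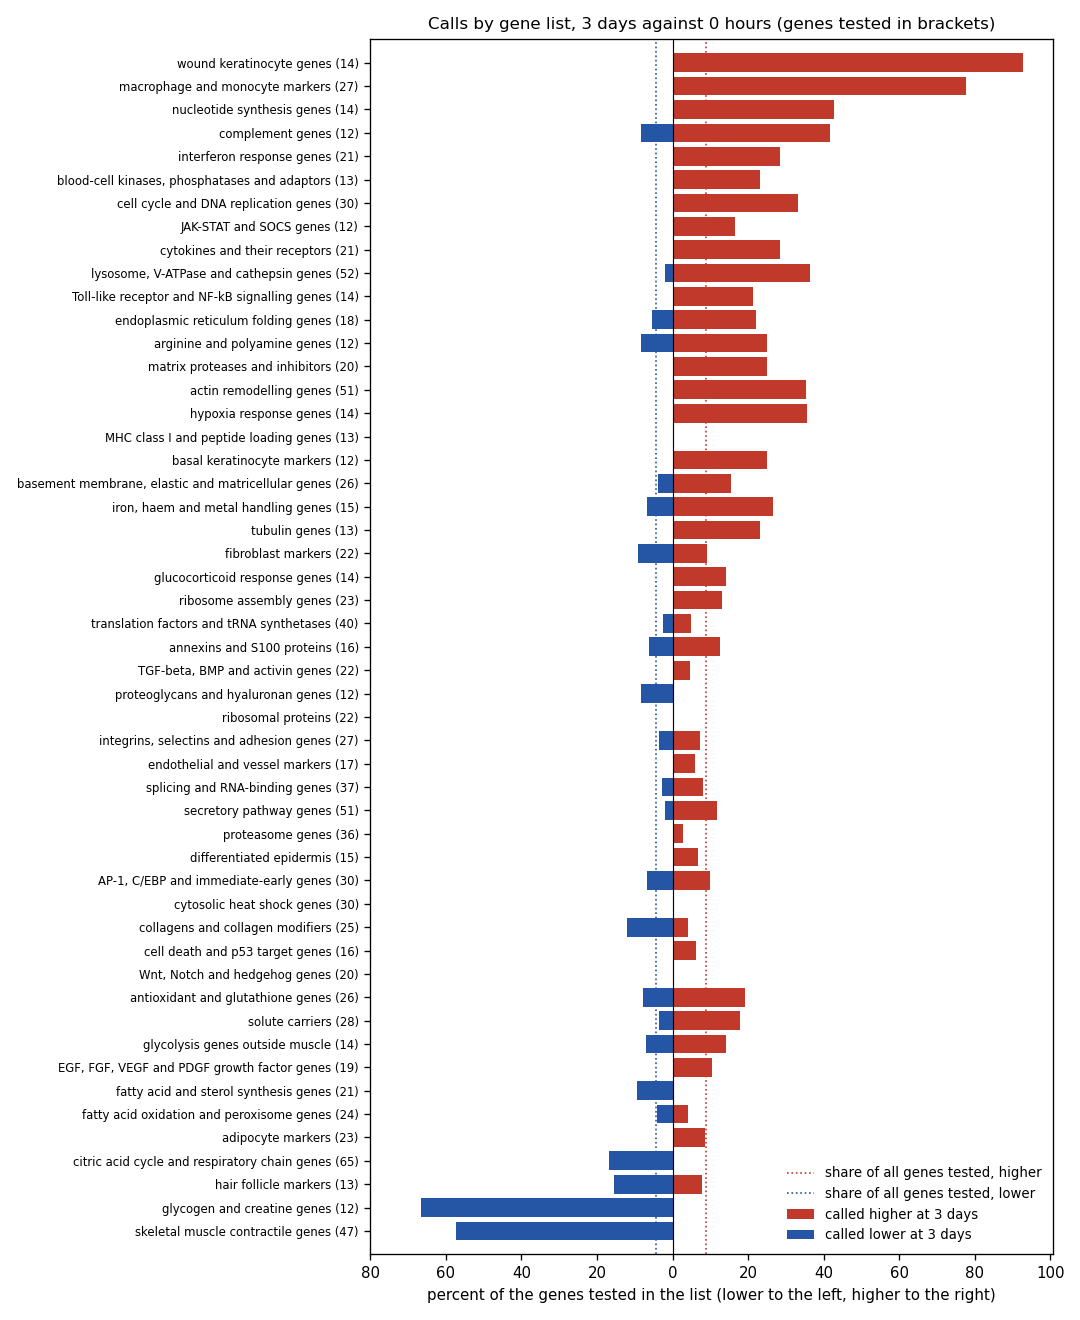
Bars give the percent of tested genes called higher (red, to the right) and lower (blue, to the left) at 3 days, for each gene list with at least 12 tested genes, ordered by the median change. Dotted lines mark the share among all 3477 genes, 8.89% higher and 4.4% lower. Wound keratinocyte and macrophage lists reach furthest to the right, and muscle and glycogen lists furthest to the left.

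Secreted signals were among the largest rises. Of 11 chemokine ligands tested 8 rose, with a median change of 1.99 against 0.02 over all genes, and 5 rose without 3 days replicate 3. A further 8 with a probe set were too dim to be tested. Chemokine genes dim at 0 hours were tested only where bright at another time point, which favours rises. Ccl8, an attractant of monocytes and T cells, was at 2001, 1794 and 2303 at 0 hours and 12016, 14051 and 13959 at 3 days. It rose 6.58-fold (2.72 ± 0.36, limma adjusted p = 0.000423). Ccl9, a monocyte attractant of mice, rose 4.49-fold (2.17 ± 0.30), from 2028, 2299 and 2727 to 8734, 10359 and 12687. Cxcl12, which guides stem cells and lymphocytes through Cxcr4, rose by 1.59 ± 0.24 on the probe set tested, while its other probe sets gave −0.08 and 0.02, and it was named after its values were seen. The neutrophil attractant Cxcl2 was below the floor at 0 hours and at 752, 1970 and 5152 at 3 days. Its rise of at least 3.13 was 3.82 without 3 days replicate 1 and 2.43 without 3 days replicate 3. Saa3, an acute phase protein secreted by macrophages and epithelia, was at 99.1, 120 and 305 at 0 hours and 3353, 17915 and 23161 at 3 days. It rose at least 44.8-fold (5.48 ± 0.65, limma adjusted p = 0.000195), by 6.35 without 3 days replicate 1, and was 1 of 6 rises among 11 acute phase and antimicrobial genes. Vegfd, a growth factor of lymphatic vessels, rose at least 2.48-fold (1.31 ± 0.19), from 257, 143 and 293 to 548, 664 and 714. 2610528A11Rik, a small secreted peptide of barrier epithelia, stayed below the floor at 0 hours and reached 1354, 1109 and 1381 at 3 days, a rise of at least 5.66-fold (2.50 ± 0.38).

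Some receptors for such signals also rose. Of 21 cytokines and receptors 6 rose, with a median of 0.53, and 4 of the calls were stable. Il4ra, the receptor chain shared by interleukin-4 and interleukin-13, went from 442, 607 and 603 to 1969, 2864 and 3978 and rose 5.18-fold (2.37 ± 0.36). Tnfrsf1b, the second receptor of tumour necrosis factor, went from 377, 379 and 371 to 720.4, 835 and 1095 and rose 2.32-fold (1.21 ± 0.21). Selplg, the ligand by which leukocytes roll on selectins, rose by 1.39 ± 0.25, and F11r, a junctional adhesion molecule, by 1.02 ± 0.21. These were 2 of 27 integrin, selectin and adhesion genes to rise, a share near that of all genes, and the list's median was 0.15. Tgfb1, the cytokine that drives matrix production, lay at the floor in the 0 hours skin and rose by at least 1.64 ± 0.37, by 2.27 without 3 days replicate 1, and lost its call without 3 days replicate 3 (limma adjusted p = 0.055). It was named after its values were seen.

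The sequences beside the largest rises are shown because several of these genes are textbook targets of inflammatory transcription factors. RefSeq promoters (GRCm38.p6) were available for 24 of the 30 largest stable rises, and 7 motifs were searched on either strand in the 250 bases before the start: those of NF-kB, of the serum response factor and of MEF2 by their usual patterns, and TGANTCA (AP-1), TTGCNNAA (C/EBP), GAGGAA (PU.1) and TATAAA (the core promoter box). A match to NF-kB, AP-1 or C/EBP stood in 12 of the 24. NF-kB matches stood in 3 (12.5%), AP-1 in 4 (16.7%) and C/EBP in 6 (25%), against 5.3%, 6.78% and 10.3% of the 2830 tested genes with a promoter and 4.46%, 7.82% and 10.8% of all 27025 genes with one. The core promoter box stood in 10 of the 24 (41.7%) against 9.33% of the tested genes, PU.1 in 7 (29.2%) against 25.2%, and the serum response factor and MEF2 motifs in 0. Among the 112 stable rises with a promoter the shares were 8.93% for NF-kB, 13.4% for AP-1, 20.5% for C/EBP, 22.3% for the core promoter box and 26.8% for PU.1. Of 22 stable falls with a promoter, 0 held NF-kB, 1 AP-1, 2 C/EBP, 2 the core promoter box and 4 PU.1. The AP-1 matches among the 24 stood in Sprr2b, Sprr2i, Sprr1a and Slfn4, and Sprr2i also held a C/EBP match. Members of a gene family were counted as separate genes, so these matches are not all independent. A match is a description of letters only. Shown are 2 promoters with NF-kB matches, 2 with AP-1 and 1 with C/EBP, each from a gene described here, 5′ to 3′ on the gene's strand and ending at the base before the start, which counts as −1. Capitals mark the matches to these 3 motifs, which begin at −97 and, overlapping it, −96 in Cxcl2, at −92 in Ier3, at −34 in Slfn4, at −146 and −116 in Sprr1a and at −99 in Saa3.
Cxcl2 upstream of the start, chr5:90903649-90903898, plus strand: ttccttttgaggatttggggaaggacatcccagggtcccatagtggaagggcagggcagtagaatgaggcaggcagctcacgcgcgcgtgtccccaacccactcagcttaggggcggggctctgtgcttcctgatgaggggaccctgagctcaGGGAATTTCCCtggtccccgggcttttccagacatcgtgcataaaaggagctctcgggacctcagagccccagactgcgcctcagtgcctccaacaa
Ier3 upstream of the start, chr17:35821463-35821712, plus strand: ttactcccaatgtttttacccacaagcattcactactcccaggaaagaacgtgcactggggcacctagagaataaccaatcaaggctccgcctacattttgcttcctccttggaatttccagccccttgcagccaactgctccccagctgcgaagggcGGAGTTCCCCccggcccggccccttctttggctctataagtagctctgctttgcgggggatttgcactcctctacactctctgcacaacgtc
Slfn4 upstream of the start, chr11:83174936-83175185, plus strand: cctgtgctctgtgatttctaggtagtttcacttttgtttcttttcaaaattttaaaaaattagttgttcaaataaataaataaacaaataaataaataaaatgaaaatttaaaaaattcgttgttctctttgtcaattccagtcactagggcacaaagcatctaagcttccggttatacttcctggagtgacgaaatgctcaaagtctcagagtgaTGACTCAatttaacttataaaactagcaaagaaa
Sprr1a upstream of the start, chr3:92485882-92486131, minus strand: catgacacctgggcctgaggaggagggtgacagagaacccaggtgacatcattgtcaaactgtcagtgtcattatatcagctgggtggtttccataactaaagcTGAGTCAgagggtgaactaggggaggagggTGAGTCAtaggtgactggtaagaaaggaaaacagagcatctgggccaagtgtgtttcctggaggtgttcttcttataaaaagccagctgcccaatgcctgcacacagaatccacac
Saa3 upstream of the start, chr7:46715677-46715926, minus strand: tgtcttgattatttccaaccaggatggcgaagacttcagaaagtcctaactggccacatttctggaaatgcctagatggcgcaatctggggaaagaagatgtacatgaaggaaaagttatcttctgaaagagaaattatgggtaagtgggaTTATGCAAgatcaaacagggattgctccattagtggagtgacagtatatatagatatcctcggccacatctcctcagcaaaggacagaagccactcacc

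Several signalling and transcription genes were called, to be read beside shares of 8.89% higher and 4.4% lower over all genes. Bcl3, a nuclear partner of NF-kB, was at the floor on 2 arrays at 0 hours and at 482, 642 and 1633 at 3 days, at least 3.42-fold higher (1.77 ± 0.35). Ier3, an early response gene of stressed and stimulated cells, rose from 561, 848 and 733 to 1402, 3551 and 7559. Its change was 2.25 ± 0.44, 2.88 without 3 days replicate 1 and 1.66 without 3 days replicate 3. Ptpn1, a phosphatase that damps insulin and JAK signalling, rose 2.84-fold (1.51 ± 0.27), from 781, 981 and 767 to 1546, 2921 and 2979. The adaptor Skap2, which couples integrins to actin in leukocytes, rose by 1.14 ± 0.19, and the kinase Akt1 by 1.22 ± 0.21. Rises were called for 3 of 14 Toll-like receptor and NF-kB genes, 2 of 12 JAK-STAT and SOCS genes (1 without 0 hours replicate 3 or 3 days replicate 2 or 3, and 5 without 3 days replicate 1) and 3 of 13 blood-cell kinases, phosphatases and adaptors. The medians of these lists were 0.49, 0.54 and 0.58, and 11 of 14, 9 of 12 and 12 of 13 genes were higher at 3 days, of which 4, 6 and 7 had an unadjusted p under 0.05. Of 30 AP-1, C/EBP and immediate-early genes 3 rose and 2 fell, near the shares of all genes. There were 5 rises without 3 days replicate 1 and 1 without 3 days replicate 3. The 2 that fell were Fos (by 2.04 ± 0.58) and Egr1 (by 1.41 ± 0.41), whose groups overlapped and whose calls were lost without 0 hours replicate 1 or 3 or 3 days replicate 1 or 2 (limma adjusted p up to 0.127 and 0.125), with Fos at −1.44 without 0 hours replicate 1 and −2.67 without 0 hours replicate 2. Akt1, Fos and Egr1 were named after their values were seen.

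Lysosomes digest what phagocytes engulf and serve other cells as well. Of 52 lysosome, V-ATPase and cathepsin genes 19 rose and 1 fell, with a median of 0.50, and 44 of the 52 were higher at 3 days. Without 3 days replicate 3 the count of rises was 9. Lgmn, an asparagine-specific lysosomal protease, went from 448, 663 and 710.3 to 1720.4, 1927 and 3764 and rose 3.90-fold (1.96 ± 0.29). Ctsc, which activates the granule proteases of neutrophils and mast cells, rose 3.54-fold (1.82 ± 0.25), with 1.58 and −0.03 on its other probe sets. Grn, the precursor of granulins, was at 1076, 1231 and 1244 at 0 hours and 2883, 2919 and 3475 at 3 days, a 2.61-fold rise (1.38 ± 0.21). Laptm5, a lysosomal protein of blood cells, rose by 1.26 ± 0.22. Ifi30, a thiol reductase that unfolds antigen in lysosomes, rose by 1.27 ± 0.26 and was, with Lgmn and Ctss, 1 of 3 rises among 9 genes of MHC class II presentation, all of them stable. Of 4 oxidative burst genes tested 2 rose: Cyba, the p22 subunit of the NADPH oxidase, from 1514, 1478 and 1452 to 3062, 4047 and 4802 (1.40 ± 0.23), and Slc11a1, the phagosomal metal transporter, by 1.22 ± 0.25. The single fall in the lysosome list was Ctsk, a collagen-degrading cathepsin, by 0.89 ± 0.19, which lost its call without 3 days replicate 3 (limma adjusted p = 0.051) and was named after its values were seen. Plin2, a coat protein of lipid droplets, rose 2.20-fold (1.14 ± 0.22), from 2847, 2644 and 2010.2 to 4097, 6489 and 6090.3.

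Actin remodelling drives cell movement. Of 51 actin remodelling genes 18 rose, with a median of 0.39, and 7 rose without 3 days replicate 3. Cfl1, cofilin, which severs actin filaments, was at 2194, 2049 and 3750.3 at 0 hours and 4743, 9449.8 and 9648 at 3 days, a 2.95-fold rise (1.56 ± 0.28). Fscn1, which bundles filaments in protrusions and in mature dendritic cells, rose 2.62-fold (1.39 ± 0.28). Arpc4, a subunit of the Arp2/3 nucleator, went from 1624, 1449 and 1696 to 2792, 3651 and 4087 (1.13 ± 0.21). Tmsb4x, thymosin beta 4, which holds actin monomers, went from 5555, 7749 and 5593 to 11629, 14097 and 14394 (1.10 ± 0.18). The groups of all 4 genes were separate, which the rule for stable calls required. Of 13 tubulin genes 3 rose, or 5 without 0 hours replicate 2, and Tubb6 (1.11 ± 0.24) and Tubb5 (1.09 ± 0.19) were stable. Tubulin sequences are alike, which leaves the members uncertain.

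Metabolic genes that rose included ones of arginine, glucose entry, haem, metals and oxidant defence. Arg1, arginase, which competes with nitric oxide synthase for arginine, was at 216, 549.8 and 339 at 0 hours and 1563, 2767 and 5181 at 3 days, at least 8.11-fold higher (3.02 ± 0.48). It was 1 of 3 rises among 12 arginine and polyamine genes, and the 1 that remained without 3 days replicate 3. Slc2a1, the basal glucose transporter, rose at least 2.74-fold (1.45 ± 0.23), and Hmox1, which breaks down haem, rose from 1834, 2727 and 2190 to 5514, 6616 and 8047 (1.58 ± 0.22). With Plin2 these were the stable rises among 14 hypoxia response genes, of which 5 rose and 3 did so without 3 days replicate 3. Sod3, the extracellular superoxide dismutase, rose 3.24-fold (1.70 ± 0.26), from 1355, 809 and 1265 to 2408, 3994 and 4892, and Glrx, glutaredoxin, by 1.29 ± 0.26. Of 26 antioxidant and glutathione genes 5 rose and 2 fell, and the median was −0.09. There were 3 rises without 3 days replicate 3, 1 fall without 0 hours replicate 3 and 0 falls without 0 hours replicate 1 or 3 days replicate 2 or 3. The metallothioneins Mt1 (1.55 ± 0.23) and Mt2 (0.98 ± 0.20), which bind zinc and copper, were 2 of the 4 rises among 15 iron, haem and metal genes, all 4 stable.

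**Figure D4:**
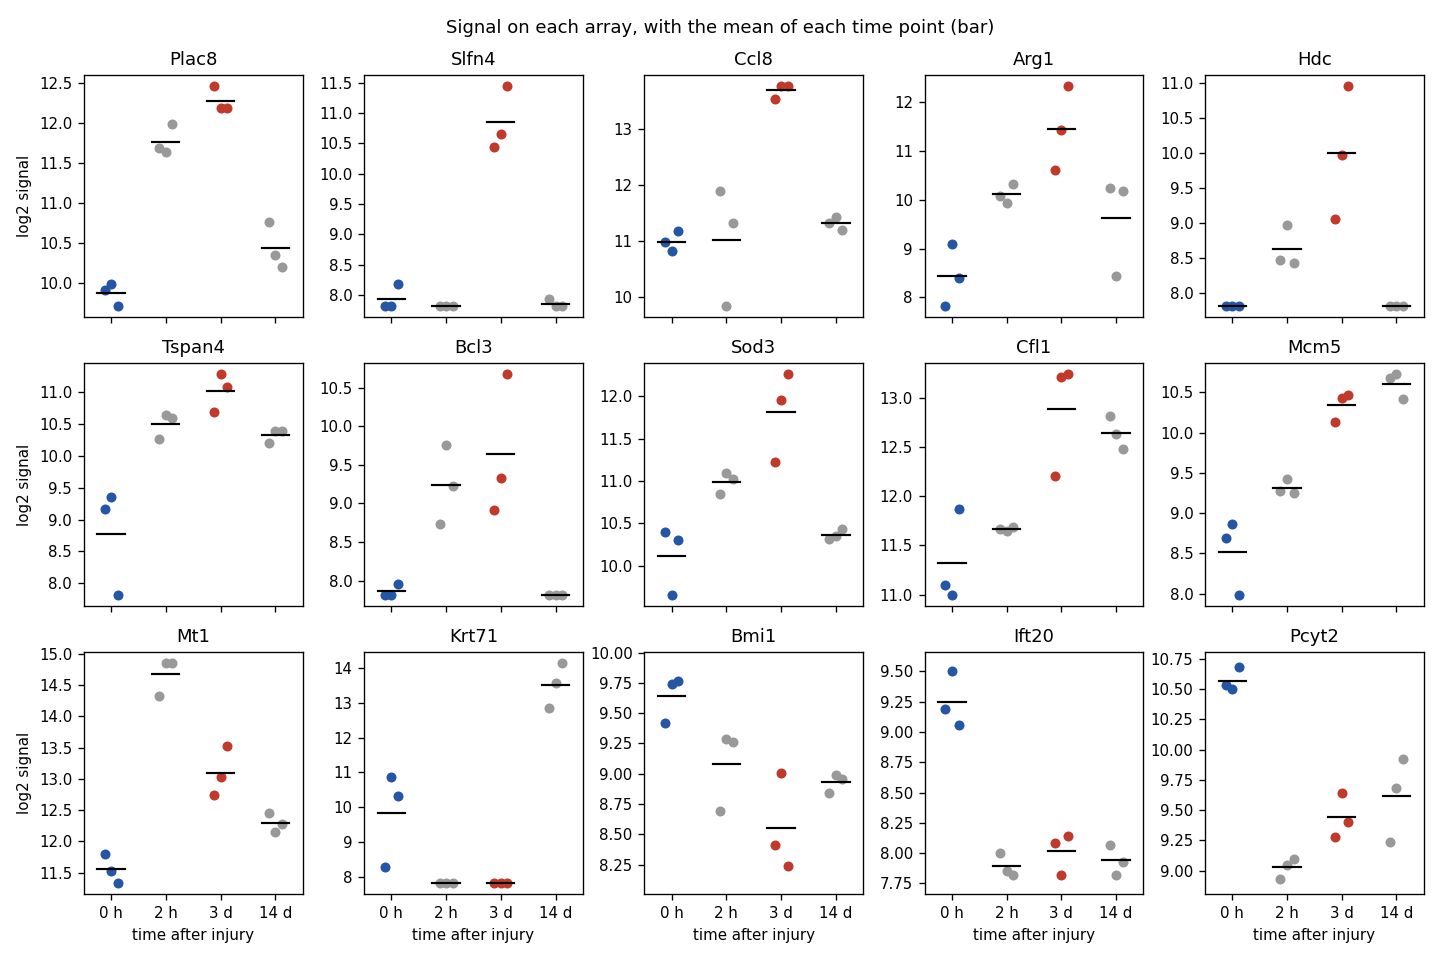
Log2 signal of 15 genes on each of the 12 arrays, by time after injury, with points for arrays and a bar for the mean of 3 arrays; values at the bottom of Slfn4, Hdc, Bcl3 and Krt71 lie on the floor. In every panel the 3 days points (red) and the 0 hours points (blue) do not overlap, because only stable calls are shown. Mt1 and Krt71 reach their highest level at 2 hours and 14 days.

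Some genes that supply and copy DNA rose. Of 14 nucleotide synthesis genes 6 rose, with a median of 0.69, and 3 did so without 3 days replicate 3. Uck2, a uridine and cytidine kinase, went from 377, 419.8 and 385 to 854, 858 and 1329 (1.33 ± 0.28), Dck, deoxycytidine kinase, rose by at least 1.24 ± 0.22, and Pnp, purine nucleoside phosphorylase, by 0.94 ± 0.23. All 3 are enzymes of salvage, which reuse bases and nucleosides. Among 30 genes of the cell cycle and DNA replication, 10 rose, with a median of 0.57, and 29 were higher at 3 days. The count of rises was 5 without 0 hours replicate 1, 4 without 3 days replicate 2 and 3 without 3 days replicate 3. A further 42 with a probe set were too dim to be tested. Genes dim at 0 hours were tested only where bright at another time point, which favours rises. The replication licensing genes Mcm5 (from 413, 466 and 254 to 1123, 1378 and 1422; 1.83 ± 0.22) and Mcm3 (1.22 ± 0.19, other probe set 0.24) and the mitotic kinase Cdk1 (at least 1.34 ± 0.18) were the stable members. Samhd1, which breaks down deoxynucleotides in myeloid cells, rose by 1.22 ± 0.27, one of 3 stable rises among 21 interferon response genes, of which 6 rose (3 without 3 days replicate 2 or 3).

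Calls among genes of protein making and export stand beside shares of 8.89% higher and 4.4% lower over all genes. Pdia6, a disulfide isomerase of the endoplasmic reticulum, was below the floor at 0 hours and at 349, 786 and 784 at 3 days, at least 2.66-fold higher (1.41 ± 0.28, other probe set 0.96). It was the only stable rise among 18 folding genes of that compartment, of which 4 rose and 1 fell. The median of that list was 0.445, and 15 of its 18 genes were higher at 3 days, 11 of them at an unadjusted p under 0.05. The vesicle GTPase Arf4 rose 2.22-fold (1.15 ± 0.23), the only stable rise among 51 secretory pathway genes, of which 6 rose and 1 fell. Together these secretory calls were a share near the 13.3% of all genes. Without 3 days replicate 3 both lists held 1 rise, without 0 hours replicate 1 both held 2, and without 3 days replicate 2 the secretory list held 3. Pabpc1, which binds the poly(A) tail of messenger RNA, rose from 3176, 3579 and 2005 to 5755, 6644 and 6990.3 (1.18 ± 0.21). Sfpq, a splicing and paraspeckle protein, rose by at least 0.98 ± 0.16 on 1 probe set, with 3 further probe sets at the floor throughout. Of 22 ribosomal proteins, 30 cytosolic heat shock genes, 13 genes of MHC class I and peptide loading and 20 Wnt, Notch and hedgehog genes 0 were called by limma in either direction. At an unadjusted p under 0.05 these lists had 2, 6, 4 and 2 higher and 0, 3, 0 and 0 lower genes.

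Markers of less usual cell types were read in the same way. Hdc, histidine decarboxylase, which makes histamine in mast cells, basophils and some neutrophils, was below the floor at 0 hours, with 29.4, 139.2 and 89.4 as deposited, and at 533, 1002 and 1994 at 3 days. It rose at least 4.53-fold (2.18 ± 0.34). Cpa3, the carboxypeptidase of mast cell granules, rose from 305, 319 and 267 to 857, 539.7 and 566 (1.11 ± 0.24), while its other probe set gave 0.13. Of 5 mast cell markers tested 3 rose, 2 of them stably, and their summed signal was 4314 to 5379 at 0 hours and 7262 to 8030 at 3 days. Kit, the defining mast cell receptor, never left the floor in either group. Of 5 neutrophil markers tested 3 rose (Mmp9, S100a8 and S100a9, of which the last 2 are also made by wound keratinocytes), with a median of 2.09. In all, 4 of the 5 were higher at 3 days, and 1 was lower at an unadjusted limma p under 0.05. Their mean log2 signal was 9.465 to 9.762 at 0 hours and 11.143 to 12.321 at 3 days, and their summed signal 8262 to 19838 and 14907 to 38820. Of 12 with a probe set 6 stayed at the floor throughout the 0 hours group and 1 (Fpr2) throughout the 3 days group. The part of neutrophils in the rise of Hdc was not tested. Macrophage and monocyte markers, in comparison, rose in 21 of 27 with a median of 1.38. Their summed signal was 54793 to 64505 at 0 hours and 93938 to 121113 at 3 days. Of 36 with a probe set 9 were too dim to be tested. At the floor throughout were 7 in the 0 hours group and 3 in the 3 days group. In the marker lists of this paragraph, genes dim at 0 hours were tested only where bright at another time point, which favours rises. The part of macrophages and monocytes in the rises of lysosomal, actin and leukocyte genes was not tested. Of the T and NK cell markers 1 of 5 with a probe set was bright enough to be tested, of B and plasma cell markers 3 of 7, and Gzma, Klrk1, Cd72, Ebf1 and Jchain were at the floor in both groups.

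All 9 tested genes of the small proline-rich family rose, 8 of them stably; they were counted by symbol after their values were seen. Sprr2i, a cross-linked envelope protein, went from 1029.9, 1444 and 1398 to 6050.3, 5662 and 7361 and rose 4.95-fold (2.31 ± 0.30). Sprr2b rose at least 22.1-fold (4.47 ± 0.68), by 3.53 without 0 hours replicate 1, and Sprr1a 6.06-fold (2.60 ± 0.32). Members of the Sprr2 family are near copies, so which of them the probe sets report is uncertain. In the wound keratinocyte list 13 of 14 tested genes rose, and the list's median was 2.66. A further 11 with a probe set were too dim to be tested. Of all 25 with a probe set, 8 stayed at the floor throughout the 0 hours group and 3 throughout the 3 days group. In this list and in the Sprr family, genes dim at 0 hours were tested only where bright at another time point, which favours rises. Gjb2, the gap junction protein connexin 26, rose 11.9-fold (3.57 ± 0.35), and by 4.13 and 2.30 with the Gapdh and the muscle covariate. Its signal was 258, 657 and 776 at 0 hours and 5561, 5639 and 7051 at 3 days. Pdpn, podoplanin, a mucin-like protein of lymphatic vessels, wound keratinocytes and activated fibroblasts, rose at least 3.01-fold (1.59 ± 0.27).

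Lower genes included those of hair and muscle. Krt71, a keratin of the inner root sheath of the hair follicle, had signals of 313, 1886 and 1283 at 0 hours and lay below the floor on all 3 arrays at 3 days. It fell by 2.02 ± 0.48, a bound set by the floor, and by 2.79 without 0 hours replicate 1. Of 23 hair follicle markers with a probe set, 4 stayed at the floor throughout the 0 hours group and 13 throughout the 3 days group. Of the 13 tested 2 fell and 1 rose. The gene that rose was Ctsc, described above among the lysosomal genes. There were 4 falls without 0 hours replicate 1 and 1 fall without 0 hours replicate 2 or 3 days replicate 2 or 3. The mean log2 signal of the 13 tested was 8.471, 9.732 and 9.172 at 0 hours and 8.527, 8.51 and 8.394 at 3 days. On this measure 0 hours replicate 1 lay within the range of 3 days. Of 47 muscle contractile genes 27 fell, with a median of −1.11, against 13 without 0 hours replicate 1 and 9 without 3 days replicate 3. Sypl2, a membrane protein of the muscle triad, had the smallest limma adjusted p of the stable members (0.000511), from 1425, 1751 and 1412 to 619, 592 and 557 (fell by 1.37 ± 0.19). Phkg1, the muscle subunit of glycogen phosphorylase kinase, fell by at least 1.42 ± 0.26, and it was the stable member among 12 glycogen and creatine genes, of which 8 fell (3 without 0 hours replicate 1, 4 without 3 days replicate 2 and 1 without 3 days replicate 3). Chchd10, a mitochondrial protein abundant in muscle, went from 12333, 7262 and 7540.1 to 4451, 3893 and 2202 (fell by 1.38 ± 0.28). Of 65 citric acid cycle and respiratory chain genes 11 fell with a median of −0.54. That count was 36 without 0 hours replicate 3, 7 without 0 hours replicate 2, 4 without 3 days replicate 2, and 0 without 0 hours replicate 1 or 3 days replicate 3, while at an unadjusted p under 0.05 in the fit of all arrays 35 were lower.

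Stable falls outside muscle were of mixed function. Ift20, which carries cargo between the Golgi and the cilium, went from 585, 722 and 535 to 270.3, 224 and 283 and fell by at least 1.24 ± 0.18 (limma adjusted p = 0.000572). Jkamp, a membrane protein that recruits proteasomes to the endoplasmic reticulum, fell by 1.33 ± 0.24, from 795, 526 and 862 to 289, 249 and 318. Mxd4, a repressor that competes with Myc for Max, fell by 1.16 ± 0.20, from 3455, 4436 and 3499 to 1628, 1845 and 1588. Bmi1, a Polycomb protein of stem and progenitor cells, fell by 1.09 ± 0.23, from 687, 855 and 873 to 339, 517 and 303. Pcyt2, which makes the headgroup donor of phosphatidylethanolamine, fell by 1.13 ± 0.20, from 1483, 1452 and 1639.6 to 623, 800.1 and 676. None of these 5 genes had overlapping groups, which the rule for stable calls required. In the fits with the Gapdh and the muscle covariate none of them was called. There Ift20 stood at −1.43 and −1.37, Jkamp at −1.54 and −1.58 and Mxd4 at −1.61 and −1.04. Bmi1 stood at −0.52 and −1.09 and Pcyt2 at −1.01 and −1.05. Polb, the DNA polymerase of base excision repair, fell by 1.01 ± 0.23 and the survival gene Bcl2l2 by 0.98 ± 0.21. Dlk1, a Notch-like inhibitor of adipocyte formation, fell by 0.95 ± 0.20 and the phosphatase subunit Ppp2r5d by 1.05 ± 0.20. The complement inhibitor Cd59a fell by 0.85 ± 0.19. Complement genes went mostly the other way: of 12 tested 5 rose and 1 fell, all stable, with a median of 0.65.

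Matrix genes moved both ways. Col1a2 fell by 1.27 ± 0.20, from 36884, 31068 and 32919 to 13285, 13396 and 15141, and its other probe set gave −0.44. Sparc, a collagen-binding protein, fell by 1.15 ± 0.19, from 15353, 14389.6 and 16493 to 6934, 6233 and 7751. These and Col1a1 were the 3 falls among 25 collagens and collagen modifiers, and 1 rose, or 2 without 0 hours replicate 2 and 0 without 3 days replicate 2 or 3. The median of that list was 0.043, and 13 of the 25 were higher at 3 days. Timp2, an inhibitor of metalloproteases, rose by at least 1.44 ± 0.29 and Timp1 by 3.13 ± 0.47, or 3.73 without 3 days replicate 1. Adam8, a membrane protease of myeloid cells, rose at least 5.55-fold (2.47 ± 0.30). They belong to the 5 rises among 20 matrix proteases and inhibitors.

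The 2 neighbouring time points placed these values in sequence; both comparisons share the 3 days arrays with each other and with the main one. Against 2 hours, 327 genes (9.4%) were called, 212 higher (6.1%) and 115 lower (3.31%), and 14 days against 3 days called 118 (3.39%), 45 higher (1.29%) and 73 lower (2.1%). Without 3 days replicate 2 or 3 the first count was 134 or 112, without 2 hours replicate 2 or 3 it was 156 or 141, and the second count was 69 or 64 without 3 days replicate 2 or 3 and 59 or 76 without 14 days replicate 2 or 3. Some rises were higher at 3 days than at both neighbours. Slfn4 was at least 3.03 ± 0.23 higher at 3 days than at 2 hours and changed by −2.99 ± 0.23 from 3 to 14 days, and Ccl8 gave 2.68 and −2.39. For others the difference between 3 days and 2 hours did not pass the test. Plac8 had 3289, 3202 and 4047 at 2 hours (3 days higher by 0.51 ± 0.20, limma adjusted p = 0.125) and Bcl3 428, 866 and 596 (0.40, adjusted p = 0.517), and by 14 days Plac8 had changed by −1.83 and Bcl3 by −1.82. Mt1 and Mt2 were lower at 3 days than at 2 hours by 1.58 ± 0.23 and 1.37 ± 0.20. For the division genes Mcm5 and Cdk1 the change from 3 to 14 days was 0.26 ± 0.22 (limma adjusted p = 0.797) and 0.34 ± 0.18 (adjusted p = 0.541), and neither passed the test. Krt71 was at the floor at 2 hours and at 7448, 12179 and 18029.5 at 14 days, 5.71 ± 0.48 above its level at 3 days (limma adjusted p = 1.11e-05). Of 13 hair follicle genes tested 10 were higher at 14 days than at 3 days, with a median of 1.87.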

How the data were processed

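Signal intensity per probe set was used as the authors deposited it, 1 value per array, with no detection calls. The labels and headers used here give no software, scaling target or background correction, so these could still move the values. The 2% trimmed means of the 12 arrays lay within 8.56% of their mean, so no scaling was added. A floor at the pooled 25th percentile (225.4) was applied before the log2 transform. Of the probe sets that name 1 gene in the platform annotation, 3815 exceeded the pooled median (475.6) on at least 3 arrays, and the one with the highest mean was kept for each of 3477 genes. Probe sets of several genes (251) or none (446) were tested apart, and 27 control probe sets were left out.

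Groups and replicates came from the sample titles. All arrays were fitted in limma 3.58.1 (R 4.3.3), 1 coefficient per time point, with 8 residual and 6.64 prior degrees of freedom, and the contrasts of 3 days with 0 hours and with 2 hours and of 14 days with 3 days were adjusted by Benjamini-Hochberg over all genes. An exact test of 3 against 3 arrays could not pass 0.05. Replicate numbers were not used for pairing, since only 2 of 18 pairs with the same number correlated above 0.1 (median −0.07). Both were pairs of 3 days with 0 hours arrays, which gave 0.165, −0.171 and 0.195 for replicates 1, 2 and 3. The arrays' number limits the precision.

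The genes named comprise the 30 largest rises and the 29 falls (30 were asked for) among stable calls, and per list up to 4 stable members with the smallest p; a gene named after its values were seen is marked so. The comparison, the 69 lists and the promoter motifs were chosen with earlier results of these data known. Alternatives covered scaling, floor, filter, probe set choice, prior variance, array weights, a replicate block, a minimum change, 2 covariates, fewer arrays in the fit and leaving out each array. On simulated arrays with 200 changed genes, the 3 days against 0 hours contrast recovered 69.9% of log2 shifts of 1 and 93.5% of shifts of 2, with 4.62% false calls. Tables and figures used Python 3.11.15, pandas 2.3.3 and matplotlib 3.10.9.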

Additional observations from a re-analysis of the deposited data

Results flagged for a closer look

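Probe sets outside the gene comparison also changed between 0 hours and 3 days. Of 401 bright probe sets that name several genes or none, limma called 35 (8.73%), 27 higher and 8 lower, against 13.3% of the genes. Of 186 that name several genes 17 were called, and of 215 that name none 18. The largest rise was 4.68 ± 0.89 (adjusted p = 0.00599) and the largest fall −1.69 ± 0.39 (adjusted p = 0.021), both in probe sets that name several genes, so no gene is given for them.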

How the results depend on the processing

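The count of 462 genes at 3 days against 0 hours fell to 4 with the Gapdh ratio as covariate (192 at an unadjusted p under 0.05), 4 with the muscle mean as covariate (391 unadjusted), 21 for a log2 change of at least 1 and 216 with only the arrays of these time points in the fit. With 1 array left out it ran from 178 to 558. The 327 genes of 3 days against 2 hours became 16 with the Gapdh and 99 with the muscle covariate, 935 with array weights and 19 for a change of at least 1, and ran from 112 to 409 with 1 array left out. The 118 genes of 14 days against 3 days became 364 with array weights and 7 for a change of at least 1, and ran from 59 to 110 with 1 array left out. The replicate block gave 412 genes at 3 days against 0 hours and took the call from 0 of the 116 named genes. Under the remaining alternatives (quantile normalization, median scaling, both floors, both filters, other probe sets, trended and robust prior) the count at 3 days against 0 hours stayed within 1.5 times the value given. The share of higher calls was 66.9%, 57.6% after quantile normalization and 78.2% with only these time points. Of the 116 named genes, 3 kept their call with the Gapdh covariate and 4 with the muscle covariate, and 95 lost theirs for a change of at least 1. Csf3 alone turned its direction, from 1.76 to −0.14 with the Gapdh covariate; the cause was not tested. The stricter filter left 79 of the 116 to be tested. Signals under the floor have no order, which limits the folds of genes dim at 0 hours.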
